A study of Homo sapiens with 6 samples.

Results

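The snoRNAs of GAS5 are 10 C/D box small nucleolar RNAs, SNORD44, SNORD47 and SNORD74 to SNORD81, encoded in the introns of the long non-coding RNA gene GAS5. They were chosen by name, and 7 of the 10 names occurred among the 28846 entries of the count tables, 451 of which are snoRNAs. SNORD47, SNORD76 and SNORD80 had no entry of their own. K562, a human erythroleukemia line, was transduced with the lentiviral vector SIEW carrying human RUNX1 and GFP, or with SIEW expressing GFP alone as empty control, in 3 independent transductions each. Total RNA was taken after 10 days in culture, and small RNA libraries were made from 1000 ng of it. The cells are a pool of transduced cells of 1 cell line, and the control cells also went through transduction and expressed GFP. The question asked of these snoRNAs was whether members of 1 host gene moved together upon RUNX1 over-expression.

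C/D box snoRNAs carry a C box and a D box near their ends and work as protein complexes with fibrillarin, which methylates the ribose of the rRNA base that the snoRNA pairs with. GAS5 belongs to the genes whose transcript starts with a run of pyrimidines, as the mRNAs of ribosomal proteins do. Its spliced RNA is short-lived in growing cells, while the snoRNAs are trimmed out of the excised introns and are stable. SNORD44 guides methylation of 18S rRNA, whereas SNORD47, SNORD78, SNORD79, SNORD80 and SNORD81 guide methylation of 28S rRNA.

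In RefSeq, GAS5 lies on chromosome 1 of GRCh38 at chr1:173863901-173869045 on the minus strand, and all 10 snoRNAs lie inside it. Along the transcript they follow each other as SNORD74, SNORD75, SNORD76, SNORD77, SNORD44, SNORD78, SNORD79, SNORD80, SNORD47 and SNORD81, each in a different intron of the GAS5 transcript with the most exons in GENCODE 29. By its RefSeq position, SNORD78, the member on which the results turn, is 65 bases long and sits at chr1:173865622-173865686, in intron 7 of that transcript. Whether the counts of the SNORD78 entry come from this position is uncertain, as given below. SNORD44 lies at chr1:173865968-173866028, in intron 6, and SNORD81 at chr1:173864146-173864222, in intron 12. The members are 60 to 81 bases long.

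The sequences of 7 members could be read from GAS5 transcripts of GENCODE 29 that retain the intron, at the RefSeq positions on GRCh38, and 4 of them are shown. SNORD74, SNORD75 and SNORD78 are named only, so whether SNORD78 shares sequence with other transcripts was not tested. SNORD44 and SNORD47 are often used as q-RT-PCR reference RNAs, SNORD81 is the member with the second highest number of counts, and SNORD80 is a member with no entry in the tables. The capitals mark the core of the C box (TGATG, first match on the snoRNA strand) and the D box (CTGA, last match on that strand), and each of the 7 sequences holds both.
SNORD44: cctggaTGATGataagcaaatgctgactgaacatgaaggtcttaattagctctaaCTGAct
SNORD47: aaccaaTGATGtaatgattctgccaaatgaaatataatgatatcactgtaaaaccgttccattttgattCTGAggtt
SNORD80: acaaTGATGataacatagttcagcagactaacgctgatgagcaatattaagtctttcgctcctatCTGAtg
SNORD81: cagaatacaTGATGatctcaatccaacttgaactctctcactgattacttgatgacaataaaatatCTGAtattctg
The C box core starts at base 5 to 10 and the D box ends 2 to 7 bases before the 3′ end in these 7 snoRNAs. Among the 21 pairs, the longest run shared by 2 members was CATAGTTCAGCAGA, 14 bases in SNORD77 and SNORD80, and the next longest runs were 10 bases. SNORD44, SNORD47, SNORD76, SNORD79 and SNORD80 shared no run of 20 bases with any other GENCODE transcript, while SNORD77 shared such runs with 2 other transcripts and SNORD81 with 1.

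Total counts ranged from 1618248 in control replicate 1 to 15245007 in RUNX1 replicate 1. At this depth 3 counts, taken as the floor, were 0.26 to 1.43 CPM, the count scaled to the size of the library. RUNX1 replicate 3 stood apart from the other RUNX1 samples, since the chi-square of its counts, divided by the degrees of freedom, was 545 against replicate 1 and 372 against replicate 2. Between replicates 1 and 2 it was 67.4, and between control samples 11.2 to 25.9. This measure grows with depth, and every RUNX1 library was deeper than every control library, so it does not compare the conditions. Among counts outside the piRNA-annotated entries, the snoRNA share was 11.6% ± 0.304 (SD, n = 3) without and 6.66% ± 0.600 (SD, n = 3) with RUNX1. The erythroid miR-451a was present in all samples, with 1312 to 3158 CPM, and miR-486-5p with 294 to 806 CPM, with miR-16-5p the least abundant of 6 erythroid miRNAs at 4.78 to 8.85 CPM. The neuronal miR-124-3p had 0 counts, the muscle miR-133a-3p at most 5 and the liver miR-122-5p at most 13. The leukocyte miR-142-5p, in contrast, had 11089 to 43263 CPM, more than miR-451a. Within that range lay miR-92a-3p, the most abundant of the 6 erythroid miRNAs, with 17550 to 27568 CPM. RUNX1 mRNA is not measured by these libraries, so the over-expression could not be checked in them.

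Of the 7 listed snoRNAs, SNORD78 alone was abundant. Control replicates 1, 2 and 3 gave 9363, 33928 and 34867 counts of it, and RUNX1 replicates 1, 2 and 3 gave 23781, 15100 and 28467. It made up at least 99.9% of the counts of the 7 entries in every sample. By count, SNORD78 had rank 6 among the snoRNAs in each control sample, and ranks 10, 8 and 5 in RUNX1 replicates 1, 2 and 3. For SNORD81, control samples gave 5, 6 and 9 counts and RUNX1 samples 13, 11 and 6, which is 0.745 to 2.39 CPM and 0.876 to 1.76 CPM. These ranges overlapped.

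The remaining entries were at or near 0. SNORD44 had 0, 1 and 5 counts in the control samples and 0 in each RUNX1 sample. SNORD74 had 0, 1 and 1 in the control samples and again 0 in each RUNX1 sample. SNORD77 had 2 counts in RUNX1 replicate 1 and 0 in the other samples. SNORD75 and SNORD79 had 0 counts in all 6 samples, which allows up to 3 counts per library and so a level of up to 0.26 CPM in the deepest of them. SNORD78 was thus the only entry to pass the filter on low counts, and the other 6 were not tested. Without that filter SNORD44 met the limits on P and fold as well, on 6 counts in all, with an adjusted p of 0.0625 in edgeR. Whether the members moved together can therefore not be tested between them.

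**Figure D1:**
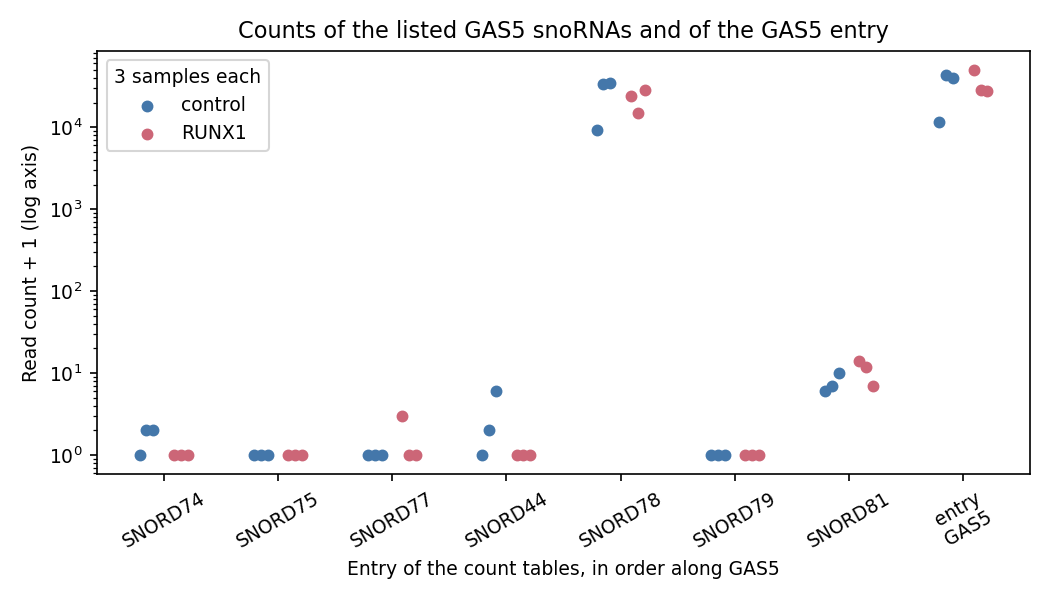
Read counts plus 1, on a log axis, of the 7 listed GAS5 snoRNAs in their order along the gene, and of the entry named GAS5. Each point is 1 sample, with 3 control and 3 RUNX1 samples per entry. SNORD78 and the GAS5 entry lie between 9363 and 49975 counts, and every other member lies at 13 counts or below.

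The tables also hold an entry named GAS5 among the snoRNAs. Control replicates 1, 2 and 3 gave 11599, 42864 and 39807 counts of it and RUNX1 replicates 1, 2 and 3 gave 49975, 28313 and 27749, which put it at rank 5 or 6 among the snoRNAs. What this entry covers is not given in the sources used here, and whether it holds reads of the members without counts was not tested. SNHG1 is a host gene of the same kind with 8 C/D box snoRNAs in its introns. Its name also held many counts and its snoRNAs few, but it had no abundant snoRNA such as SNORD78. The entry named SNHG1 had 32165 to 156926 counts, while 6 of its 8 snoRNAs had an entry, with 18 counts or fewer in any sample, and SNORD25 and SNORD26 had none. SNHG5 had 6771 to 46038 counts under its own name, and its snoRNAs SNORD50A and SNORD50B had no entry under these names, while an entry named SNORD50 had 0 to 4 counts. By contrast, the 4 C/D box snoRNAs of the ribosomal protein gene RPL13A and the 4 of RPL7A all had entries that passed the filter.

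The origin of the SNORD78 counts is uncertain too. The study's list of altered small RNAs places its SNORD78 entry on another chromosome than GAS5, so whether the counts come from the GAS5 intron cannot be told apart from a copy elsewhere. The aligner and the treatment of reads that match several loci are not given in the sources used here.

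SNORD78 was lower in RUNX1 than in control samples. Since these are bulk samples, less RNA per cell and fewer cells that express it cannot be told apart. After TMM normalization, which assumes that most small RNAs are unchanged, control replicates 1, 2 and 3 had 4478, 4210 and 4591 CPM, and RUNX1 replicates 1, 2 and 3 had 2063, 2416 and 4155 CPM. All RUNX1 samples lay below all control samples, but RUNX1 replicate 3 lay close to control replicate 2 and far above the other RUNX1 samples. The mean fell from 4427 ± 196 CPM (SD, n = 3) to 2878 ± 1120 CPM (SD, n = 3), which edgeR's quasi-likelihood fit gave as -0.62 on the log2 scale, with a standard error of 0.24 and an adjusted p = 0.047 (Benjamini-Hochberg). The study called a small RNA altered when P was below 0.05 and the log2 change 0.5 or more in size, and SNORD78 met both limits. So did 57.6% of all 947 small RNAs tested and 59.1% of the 230 snoRNAs. In this fit, which itself used TMM, most small RNAs were thus called altered, with 265 higher and 280 lower. The assumption of TMM can therefore not be taken as met. The TMM factors were 1.23 to 1.31 in control and 0.73 to 0.87 in RUNX1 samples. Altered and lower were 29.6% of all small RNAs and 32.6% of the snoRNAs. With the adjusted p in place of P, which SNORD78 also passed, 54.6% of all small RNAs were altered, and 31.3% of the snoRNAs were altered and lower. Every RUNX1 sample was below every control sample in 33.5% of all small RNAs and in 40.4% of the snoRNAs. A lower level of SNORD78 is thus a common result in these libraries.

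The size of the fall moved with the RUNX1 library left out. Without RUNX1 replicate 3 the log2 change of SNORD78 was -0.90 (standard error 0.0964). It was -0.42 without RUNX1 replicate 1 and -0.48 without RUNX1 replicate 2. Without control replicate 1, 2 or 3 it was -0.59, -0.66 or -0.58, close to the value from all samples. Leaving out any sample except RUNX1 replicate 3 put P at 0.0501 to 0.0797 in the same edgeR test (adjusted p 0.0913 to 0.133). SNORD78 was then no longer altered, in fits with 1 sample fewer. Library size alone as the scaling gave -1.29, and moved the median of all small RNAs to -0.76. Normalization on snoRNAs gave -0.45 with an adjusted p of 0.166 from edgeR, which is short of both thresholds. The difference between SNORD78 and the median of all small RNAs, which a change of scaling leaves nearly as it is, was -0.56. As a share of all snoRNA counts, SNORD78 took 4.96%, 4.68% and 5.02% of control replicates 1, 2 and 3, against 2.48%, 2.80% and 4.90% of RUNX1 replicates 1, 2 and 3. On this scale the conditions overlapped, since RUNX1 replicate 3 lay within the range of the control samples. For the 7 entries together the share was 4.89% ± 0.184 (SD, n = 3) in control and 3.40% ± 1.31 (SD, n = 3) in RUNX1 samples, with p = 0.2 in a two-sided exact permutation test. The smallest p that 3 samples against 3 allow is 0.1.

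**Figure D2:**
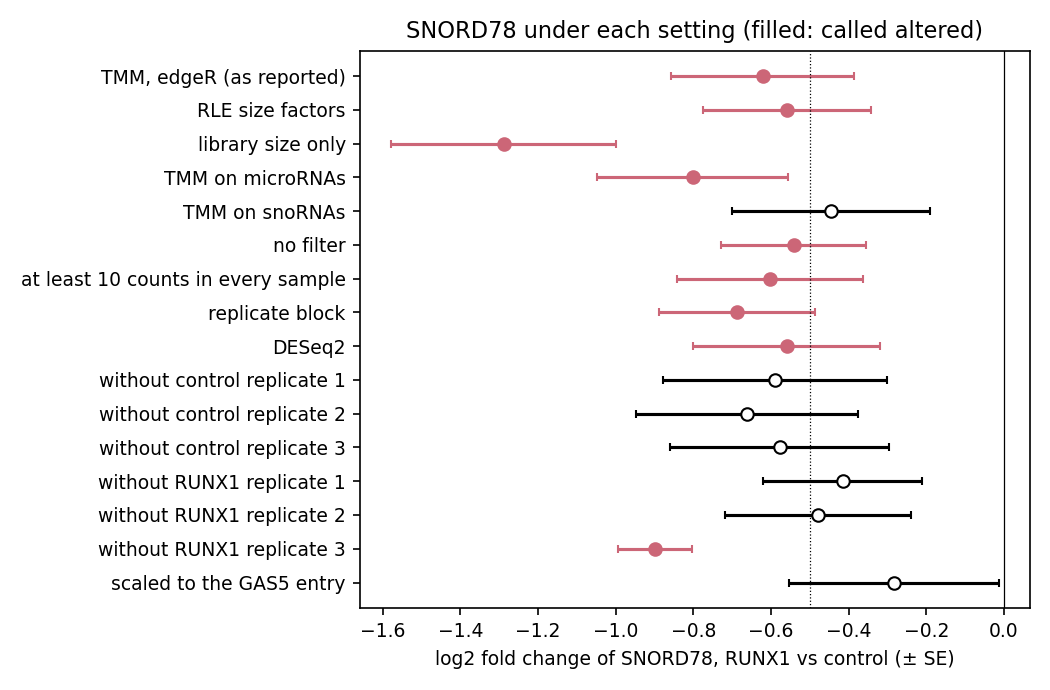
Log2 fold change of SNORD78 (RUNX1 against control, x axis, with its standard error) as reported and under 15 other settings. Filled points pass both limits, on P and on the fold change. All values lie below 0, from -1.29 to -0.28, and 7 of the 15 other settings do not pass.

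For the GAS5 entry the estimated fall was smaller than for SNORD78 and more even between the RUNX1 samples. A difference between this entry and SNORD78 was not shown, as given below. Control replicates 1, 2 and 3 had 5547, 5319 and 5242 CPM of the GAS5 entry, against 4335, 4530 and 4050 CPM for RUNX1 replicates 1, 2 and 3. The conditions did not overlap, as in 64.8% of all small RNAs tested in either direction, and RUNX1 replicate 3 was the lowest sample. Its log2 change was -0.32, with a standard error of 0.11 and an adjusted p = 0.0333 in edgeR, and stayed within the limit of 0.5. Without RUNX1 replicate 3 it was -0.19, and with any 1 sample left out its adjusted p in edgeR was between 0.061 and 0.153. The adjusted p was 0.132 with the size factors of DESeq2 in edgeR, 0.0869 with a replicate block and 0.56 without a count filter in edgeR, and 0.136 in DESeq2. The entry was altered, on P and fold change, with library size alone, at -1.02, and with normalization on microRNAs, at -0.51. With at least 10 counts in every sample it was -0.30, with an adjusted p of 0.0389 in edgeR. It was -0.16 with normalization on snoRNAs. As a share of all snoRNA counts the entry went from 5.93% ± 0.207 (SD, n = 3) to 5.08% ± 0.268 (SD, n = 3), with p = 0.1 in an exact permutation test, the smallest possible.

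The ratio of SNORD78 to GAS5 counts within a sample needs no normalization. Control replicates 1, 2 and 3 had a ratio of 0.807, 0.792 and 0.876, against 0.476, 0.533 and 1.03 for RUNX1 replicates 1, 2 and 3. In RUNX1 replicates 1 and 2 SNORD78 was thus lower against the GAS5 entry than in any control sample, while in RUNX1 replicate 3 it was higher than in any control sample. The log2 ratio went from -0.28 ± 0.0775 (SD, n = 3) to -0.65 ± 0.598 (SD, n = 3), a difference of -0.37 that is smaller than the spread between the RUNX1 samples (exact permutation test, p = 0.4). Without RUNX1 replicate 3 the difference was -0.71. With all counts scaled to the GAS5 entry, SNORD78 was at -0.28 on the log2 scale, with a standard error of 0.27 and an adjusted p = 0.406 in edgeR. A difference between SNORD78 and the GAS5 entry was therefore not shown, which does not mean that they moved alike.

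**Figure D3:**
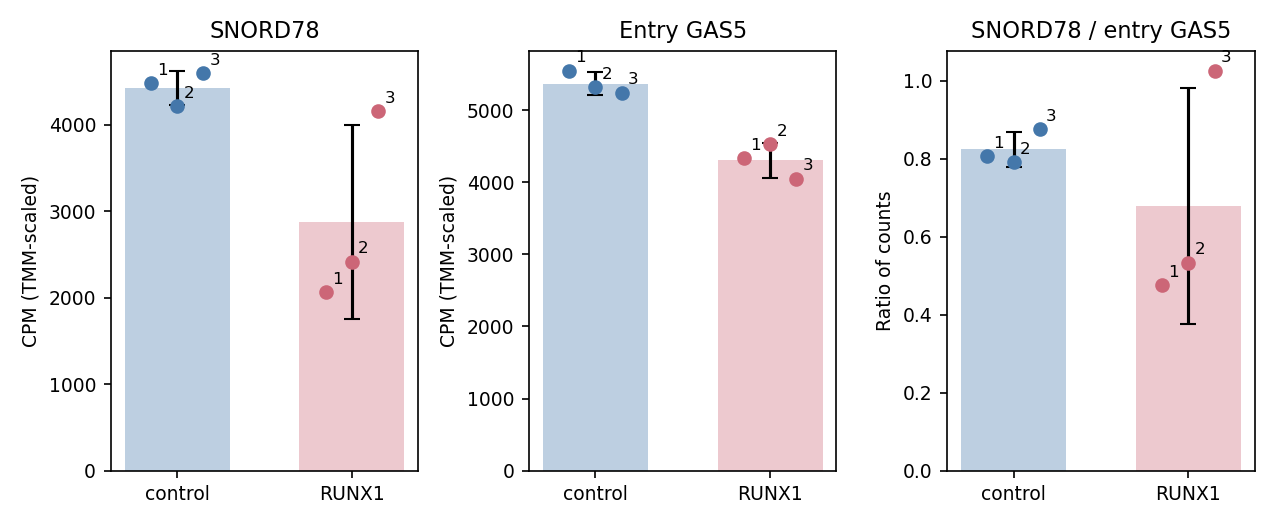
TMM-scaled CPM of SNORD78 (left) and of the GAS5 entry (middle), and the ratio of their counts (right), in control and RUNX1 samples. Points are samples with their replicate numbers, bars are means and error bars the SD of 3 samples. RUNX1 replicate 3 has 4155 CPM of SNORD78 against 2063 and 2416 in the other RUNX1 samples, and is the lowest sample for the GAS5 entry.

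Among the 116 tested entries whose name starts with SNORD, SNORD78 had the 28th lowest log2 fold change. Of these entries 32 were altered and higher and 34 altered and lower in RUNX1 samples. The median of the 116 was -0.12, and the middle 50% lay between -0.61 and 0.54, so SNORD78 sat just below that range. In RPL13A, 1 of the 4 hosted snoRNAs was lower and 0 were higher, with log2 fold changes from -2.98 for SNORD33 to 0.24 for SNORD34. The median of these 4 was -0.16, and their SD of 1.49 came mainly from SNORD33. In RPL7A, 1 was higher and 0 were lower, from -0.26 for SNORD36B to 0.85 for SNORD36A, with a median of 0.03 and an SD of 0.48. Over all 230 tested snoRNAs the SD was 1.28. The SNHG1 entry was at -0.10 on the log2 scale (standard error 0.113) and the SNHG5 entry at 0.22 (standard error 0.114), and neither was altered.

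**Figure D4:**
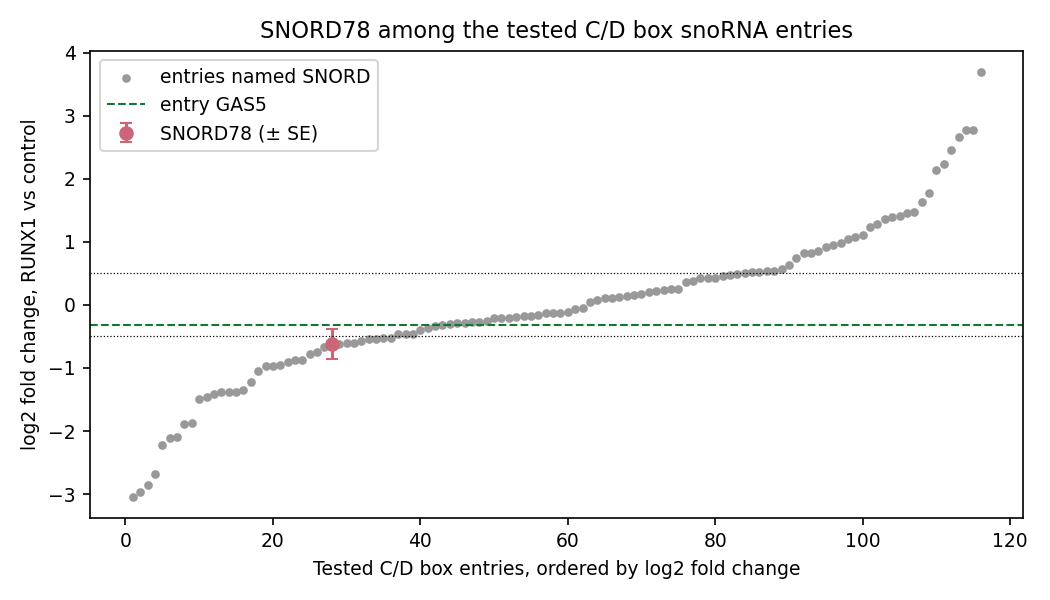
Log2 fold change (RUNX1 against control) of the 116 tested entries named SNORD, in ascending order. SNORD78 is drawn with its standard error, the dashed line is the GAS5 entry at -0.32, and the dotted lines mark the threshold of 0.5. SNORD78 lies at position 28, with 27 entries below it.

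The snoRNAs whose profile over the 6 samples was most like that of SNORD78 were SNORA51, SNORD105B, SNORD93, SNORD69 and SCARNA6, with a root-mean-square difference of 0.128 to 0.17 between centred log2 CPM values. They were chosen for that likeness, so that replicate 3 was the RUNX1 sample nearest to the controls in all 5, as in SNORD78, follows from the choice. For SNORD93, the most abundant of them, control replicates 1, 2 and 3 had 9465, 9074 and 10301 CPM and RUNX1 replicates 1, 2 and 3 had 4783, 5390 and 7047 CPM. Replicate 3 was the RUNX1 sample nearest to the controls in 56.1% of all small RNAs tested, 55.7% of the snoRNAs and 67.2% of the SNORD entries. Among those altered and lower it was so in 60.4% of all small RNAs, 57.3% of the snoRNAs and 76.5% of the SNORD entries. The GAS5 entry was not among the most similar ones, at place 57 of 229 with a difference of 0.394.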

How the data were processed

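Small RNA libraries (TruSeq kit, HiSeq2000, single reads) of 3 control and 3 RUNX1 samples were used. The authors ran the reads through the OASIS platform and deposited whole-number read counts per annotated small RNA, without normalization. The submitters' processing notes name CASAVA 1.8.2 and the build hg19. Counts of 5 summary lines without a gene were 0.

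Groups and replicate numbers were taken from the sample titles. Low entries were removed by filterByExpr of edgeR 4.0.16 in R 4.3.3 (count 10, total 15), the rest scaled by TMM, and RUNX1 compared with control by glmQLFit and glmQLFTest, with no other term. Standard errors are the log2 change over the root of the F statistic, and P-values were adjusted by Benjamini-Hochberg over all 947 tested entries. Names were matched exactly. The members and comparison lists were chosen with earlier results of these data known. The comparison lists were the SNHG1, SNHG5, RPL13A and RPL7A snoRNAs and all other SNORD entries, and only the extremes of each were named, with the 5 most similar snoRNAs (log2 CPM with a prior count of 2). With 1 member tested, no median, spread or ratio between members was computed. Intervals and floors cover counting error only. The test was tried on simulated data first. Alternatives were DESeq2 1.42.0, other scalings and filters, a replicate block and each sample left out. Scaling to the GAS5 entry was added after the data were seen. Control and RUNX1 libraries carry different letters in their names, whose meaning is not given in the sources used here; what the letters mark cannot be told apart from the condition.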

Additional observations from a re-analysis of the deposited data

How the results depend on the processing

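SNORD78 was lower in RUNX1 samples under all 15 alternatives, and its call on P and fold change held in 8 of them. With at least 10 counts in every sample SNORD78 kept the call, with an adjusted p of 0.0556 in edgeR. It was not altered with normalization on snoRNAs (-0.45), with scaling to the GAS5 entry (-0.28), or without any 1 sample other than RUNX1 replicate 3. With a sample left out its log2 fold change ranged from -0.90 to -0.42, the number of altered members from 0 to 1, and adjusted p over all alternatives from 2.18e-09 to 0.406. The number of altered members was 1 as reported, 0 with normalization on snoRNAs or a log2 fold change of at least 1, and 2 without a count filter. The second was then SNORD44, with 6 counts in all and an adjusted p of 0.0625 from edgeR. Without a filter 3084 small RNAs were tested and 761 altered, and with at least 10 counts in every sample 654 and 386. Normalization on snoRNAs left 554 of 947 small RNAs altered. With 1 sample left out 521 to 612 were altered, of 969 to 1020 tested. The share of all small RNAs with a log2 fold change of at least 1 was not computed. The summed level of the members was a log2 ratio of means of -0.62. It was -1.29 as a percent of counts without piRNA entries and -0.53 as a percent of snoRNA counts. With a sample left out it was -0.98 to -0.43. Without SNORD78 it was -0.45 (1.79 and 1.31 CPM, exact permutation test, p = 0.4). This last value rests on 5, 8 and 15 counts in control samples and 15, 11 and 6 in RUNX1 samples. These counts are near the floor, so the value does not show that the other members fell. SNORD81, with 50 counts in all, was at 0.13 on the log2 scale without a count filter. The share of SNORD78 in the member counts differed by -0.0279 to -0.0021 percentage points with a sample left out. With the replicate number as a block SNORD78 had -0.69 and 546 small RNAs were altered in place of 545. Deviations of samples with the same number correlated at -0.0904 to 0.0178, so the numbers are not taken to pair the samples. The share of SNORD78 has no value with SNORD78 left out of the total, and tests between members were not run since 1 member passed the filter.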
